A study of Homo sapiens with 2 samples.

Results

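The transcripts of 9 histone genes, of 36601 features in the count table and of 91 histone gene symbols there, were followed across sections of 2 tumors. They are HIST1H4C (H4C3 in current nomenclature), HIST1H1C (H1-2), HIST1H1E (H1-4), HIST1H2AC (H2AC6), HIST1H2BC (H2BC4), HIST1H2BD (H2BC5), HIST1H2BK (H2BC12), HIST2H2BE (H2BC21) and H2AFZ (H2AZ1). The genes were chosen by symbol, with their levels in areas of few UMIs, at different hypoxia levels and beside replication genes already known, so those 3 readings are given as descriptions without a test. Spatial transcriptomes were made on Visium slides from tumors of MDA-MB-231, a long-used human breast cancer cell line of the triple-negative kind, which carried a hypoxia fate-mapping reporter and received no treatment. Each tumor was harvested at day 18 after implantation and gave 1 frozen section of 10 µm, and both tumors form a single group. The host animal is not named in the labels, and whether the line is a clone is not stated there.

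Histones package DNA into nucleosomes. A pair of H3 and H4 dimers and a pair of H2A and H2B dimers make the core, and a linker histone of the H1 family sits where DNA enters and leaves it. Most histone genes lie in clusters without introns and are copied mainly when DNA is replicated, and their mRNAs classically end in a stem-loop in place of a poly(A) tail. A Visium slide of this kind captures poly(A) tails, so what is counted for such a gene is the polyadenylated form of its mRNA, and the stem-loop form is largely outside the measurement. H2AFZ, which encodes the H2A variant H2A.Z, is a stand-alone gene with introns and an ordinary poly(A) tail.

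A kept spot lies over tissue and holds at least 500 UMIs, which left 2536 spots with a median of 23574 UMIs in tumor 1 and 2841 spots with a median of 15895 UMIs in tumor 2. The sections share 1627 spot barcodes, which on these slides stand for array positions and not for cells. The line's label was checked against its markers. VIM was at 5639 and 5548 CPM (counts scaled to the library total) in tumors 1 and 2 and CD44 at 405 and 449 CPM. Of the markers listed as absent from the line, ESR1 was at 0.12 and 0.13 CPM, PGR at 0.051 and 0.050 CPM and CDH1 at 0.051 and 0.025 CPM. ERBB2, on the same list, was at 26.2 and 25.3 CPM and so was not absent. Host reads that align to human histone genes cannot be told apart from tumor reads, since histone coding sequences are much alike between species and among the copies within a species.

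By RefSeq positions on GRCh38.p14, 7 of the 9 genes lie on chromosome 6. Of these, 6 lie together: HIST1H1C (chr6:26055740-26056470), HIST1H4C (chr6:26103933-26104337), HIST1H2BC (chr6:26113170-26123926), HIST1H2AC (chr6:26124172-26124690), HIST1H1E (chr6:26156329-26157115) and HIST1H2BD (chr6:26158121-26171349). HIST1H2BK (chr6:27138293-27146858) lies farther along the chromosome. HIST2H2BE is at chr1:149884459-149886682 and H2AFZ at chr4:99948088-99950275. HIST1H2AC and HIST1H2BC are read away from each other, with start sites 246 bases apart. The annotated genes HIST1H2BC, HIST1H2BD and HIST1H2BK span 10757, 13229 and 8566 bases, against 405 bases for HIST1H4C, since they include transcripts that run past the short coding part. HIST1H2BD also overlaps the noncoding RNA gene H2BC6-AS1, and whether strand was used in counting is not given in the sources used here.

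Promoters are shown for the pair of linker histone genes, which differed from each other across the tumors, for HIST1H2AC, which shares its promoter region with HIST1H2BC, and for H2AFZ, whose order over both scores was opposite to that of HIST1H1E. Each stretch runs from 250 bases before to 50 bases after the start site, on the strand of the gene, as in RefSeq on GRCh38.p14: HIST1H1E at chr6:26156079-26156378 (plus strand), HIST1H1C at chr6:26056421-26056720 (minus strand), HIST1H2AC at chr6:26123922-26124221 (plus strand) and H2AFZ at chr4:99950226-99950525 (minus strand). Capitals mark the searched motifs on either strand, which are the TATA box TATAAA, the CCAAT box, the octamer ATTTGCAT known from H2B promoters and the element AAACACA known from H1 promoters.
HIST1H1E: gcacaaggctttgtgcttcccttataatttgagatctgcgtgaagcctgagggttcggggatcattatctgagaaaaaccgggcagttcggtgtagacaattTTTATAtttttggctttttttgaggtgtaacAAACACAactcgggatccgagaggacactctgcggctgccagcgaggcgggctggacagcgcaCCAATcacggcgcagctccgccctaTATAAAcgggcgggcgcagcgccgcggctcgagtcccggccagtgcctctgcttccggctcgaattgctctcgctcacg
HIST1H1C: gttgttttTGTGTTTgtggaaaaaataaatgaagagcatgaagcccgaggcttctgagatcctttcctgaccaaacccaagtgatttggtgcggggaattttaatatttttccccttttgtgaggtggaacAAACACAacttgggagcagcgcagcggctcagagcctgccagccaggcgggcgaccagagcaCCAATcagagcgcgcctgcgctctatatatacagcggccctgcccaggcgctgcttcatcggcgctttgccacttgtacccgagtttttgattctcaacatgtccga
HIST1H2AC: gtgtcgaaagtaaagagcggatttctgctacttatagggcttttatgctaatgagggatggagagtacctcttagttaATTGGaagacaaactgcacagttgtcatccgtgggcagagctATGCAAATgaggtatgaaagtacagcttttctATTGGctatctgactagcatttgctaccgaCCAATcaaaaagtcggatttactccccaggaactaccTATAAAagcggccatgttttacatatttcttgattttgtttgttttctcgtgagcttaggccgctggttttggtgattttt
H2AFZ: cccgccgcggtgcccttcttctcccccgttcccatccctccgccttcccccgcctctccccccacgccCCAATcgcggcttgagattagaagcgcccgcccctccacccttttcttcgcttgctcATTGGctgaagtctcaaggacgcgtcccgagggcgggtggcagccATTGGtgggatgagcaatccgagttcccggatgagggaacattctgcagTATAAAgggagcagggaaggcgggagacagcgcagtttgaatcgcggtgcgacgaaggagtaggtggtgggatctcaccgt

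These letters occur in many promoters, and a match is a description and not a site. TATAAA was found in 7 of the 8 members with a promoter in the table, and in 11.95% of 27305 promoters of the same length. CCAAT was found in 8 of 8 members and in 35.7% of promoters. ATTTGCAT was found in 4 members (HIST1H2AC, HIST1H2BC, HIST1H2BK and HIST2H2BE) and in 1.80% of promoters. HIST1H2AC and HIST1H2BC read overlapping stretches, so they share motif matches. AAACACA was found only in HIST1H1C and HIST1H1E among the 8, and in 5.76% of promoters. In HIST1H1E its letters begin at position -117, and TATAAA begins at position -31 in both HIST1H2AC and H2AFZ, counted from the start site. TTTGGCGC and TTTCCCGC, forms of the site known for E2F factors, were in 0 of 8 members and in 0.659% and 1.66% of promoters.

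Summed over all kept spots, H2AFZ held 51065 UMIs in tumor 1 and 31844 in tumor 2, or 871 and 801 CPM. HIST1H1C, a linker histone, had 305 and 271 CPM, and HIST1H2AC, an H2A gene, had 112 and 116 CPM. These members had close values in the 2 tumors. HIST1H4C, an H4 gene, had 96.7 and 85.2 CPM, and HIST1H2BD, an H2B gene, had 43.4 and 47.3 CPM. HIST1H2BC and HIST2H2BE, also H2B genes, had 9.90 and 8.73 CPM, and 8.90 and 9.99 CPM. The linker histone HIST1H1E had 5.64 and 8.73 CPM from 331 and 347 UMIs, so it rests on few molecules per zone.

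HIST1H2BK, another H2B gene, was the member that stood apart between the tumors. It had 492 UMIs (8.39 CPM, exact Poisson 95% interval 7.66 to 9.16) in tumor 1 and 29 UMIs (0.73 CPM, interval 0.49 to 1.05) in tumor 2. The intervals cover counting error only and do not overlap. Of 10868 genes with at least 5 CPM in either tumor, 13 were at least 8-fold apart, 4 higher in tumor 1 and 9 higher in tumor 2. The 4 were HIST1H2BK, the H2A gene HIST2H2AA4 (133 CPM in tumor 1 and 10.2 CPM in tumor 2), C11orf98 and RPS10-NUDT3, and 7 of the 9 were skeletal muscle genes of the marker list. HIST2H2AA4 has a near-identical copy, HIST2H2AA3, so reads could be split between them, and HIST2H2AA3 was at 0.10 and 0.050 CPM. These genes were singled out after their values were seen, and with 1 section per tumor the difference has no test.

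A low-UMI area was drawn in each tumor as the spots whose UMIs, averaged with the adjacent spots, lay under an Otsu threshold. It held 528 spots (20.8%) with a median of 4592 UMIs, against 27141 in the rest, in tumor 1, and 825 spots (29.0%) with a median of 1430 UMIs, against 19869 in the rest, in tumor 2. Fewer cells and less RNA per cell cannot be told apart in such spots. HIST1H4C had 355 CPM in the area and 85.0 CPM in the rest in tumor 1, and 157 CPM in the area and 78.0 CPM in the rest in tumor 2, after TMM scaling. The ratio of area to rest was 4.18 (interval 3.89 to 4.49) in tumor 1 and 2.01 (1.74 to 2.31) in tumor 2, with exact binomial 95% intervals. Among 15253 genes the ratio of HIST1H4C was the 36th highest in tumor 1 and the 788th highest in tumor 2. The share of HIST1H4C among the molecules was thus higher in the area of both tumors, and most of all in tumor 1.

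Per spot, HIST1H4C did not have more molecules in the area. It averaged 1.73 UMIs per spot in the area, against 2.37 in the rest, in tumor 1, and 0.26 in the area, against 1.57 in the rest, in tumor 2. All features together had a 5.42-fold gap between the rest and the area in tumor 1, while the gap for HIST1H4C was 1.37-fold. In tumor 2 the gap was 11.4-fold for all features and 6.06-fold for HIST1H4C. H2AFZ had larger gaps than all features, 7.58-fold and 15.2-fold in tumors 1 and 2. The gap of HIST1H4C was thus smaller than that of the whole library in both tumors, and the gap of H2AFZ was larger.

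HIST1H4C was then followed by steps from the edge of the area. Values here are plain CPM, and a step is a move to an adjacent spot. In tumor 1, HIST1H4C was at 438, 487, 424, 307 and 249.5 CPM from 5 or more steps inside to 1 step inside, then at 128 CPM at 1 step outside and 73.8 CPM at 8 or more steps outside. In tumor 2 it was at 169, 176, 126, 132 and 157 CPM over the same inner steps, at 131 CPM at 1 step outside and at 64.0 CPM at 8 or more steps outside. Tumor 1 had a steep slope inside the area, which tumor 2 did not show, and in both tumors the level was lowest at 8 or more steps outside. H2AFZ ran the other way outside the area, at 631 CPM at 1 step and 938 CPM at 8 or more steps in tumor 1, and at 507 and 839 CPM in tumor 2.

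**Figure D1:**
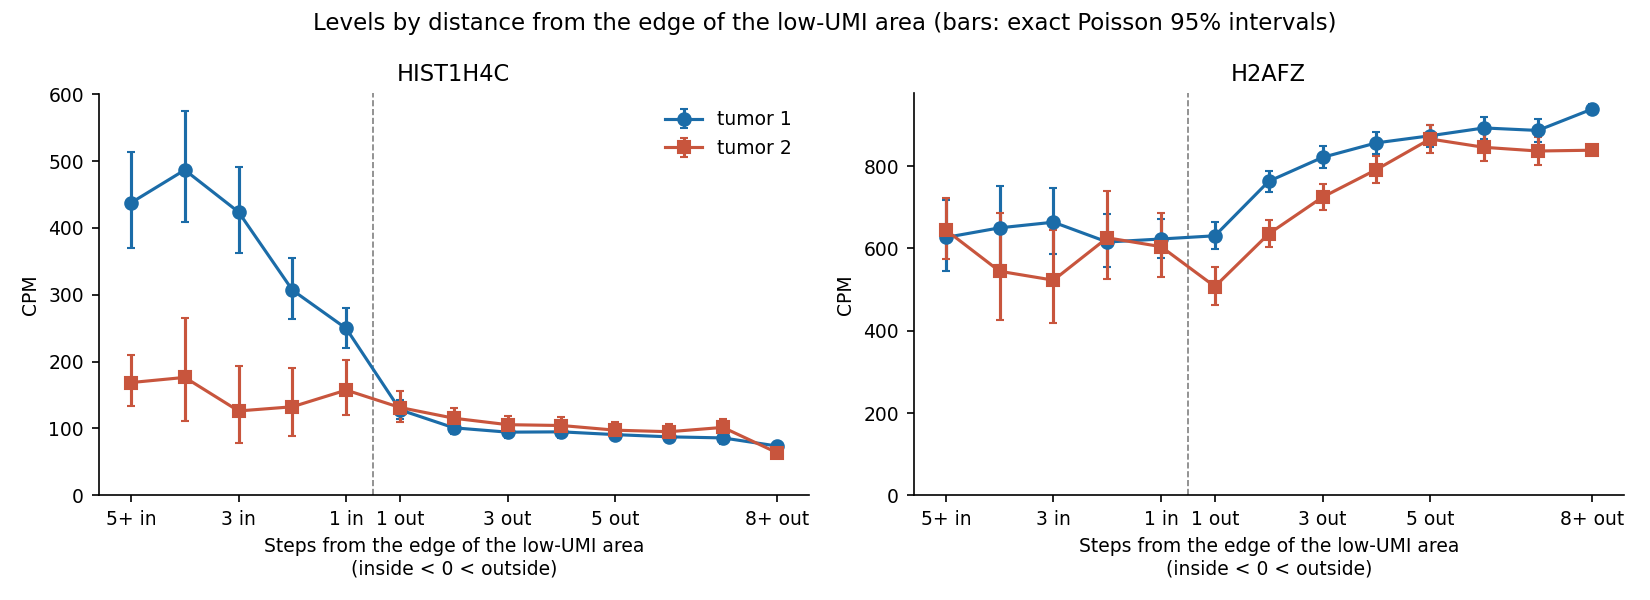
CPM of HIST1H4C (left) and H2AFZ (right) by steps from the edge of the low-UMI area (dashed line), with inside to the left and outside to the right, for tumor 1 (circles) and tumor 2 (squares), where bars are exact Poisson 95% intervals of the counts. HIST1H4C reached 487 CPM inside the area of tumor 1 and 176 CPM inside that of tumor 2, and H2AFZ was highest far outside the area in tumor 1, at 938 CPM.

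The map of HIST1H4C over tiles of 6 array rows by 12 columns was read beside the area. Across 74 tiles of tumor 1, HIST1H4C ranged over 43.3 to 595 CPM with a median of 97.2 CPM, and across 83 tiles of tumor 2 over 8.43 to 290.5 CPM with a median of 76.6 CPM. H2AFZ ranged over 468 to 1155 CPM and over 341 to 1109 CPM. In tiles with 50% or more of their spots in the low-UMI area, HIST1H4C had a median of 239.7 CPM over 13 tiles, against 86.8 CPM over the other 61 tiles, in tumor 1, and 170.2 CPM over 21 tiles, against 68.9 CPM over 62 tiles, in tumor 2. In tumor 2 such tiles ranged over 37.3 to 290.5 CPM, from only 2 to 45 UMIs of HIST1H4C a tile, with 2 UMIs in the lowest and 15 in the highest. H2AFZ had medians of 641 CPM in those tiles, against 849 CPM in the others, in tumor 1, and 555 against 812 CPM in tumor 2.

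**Figure D2:**
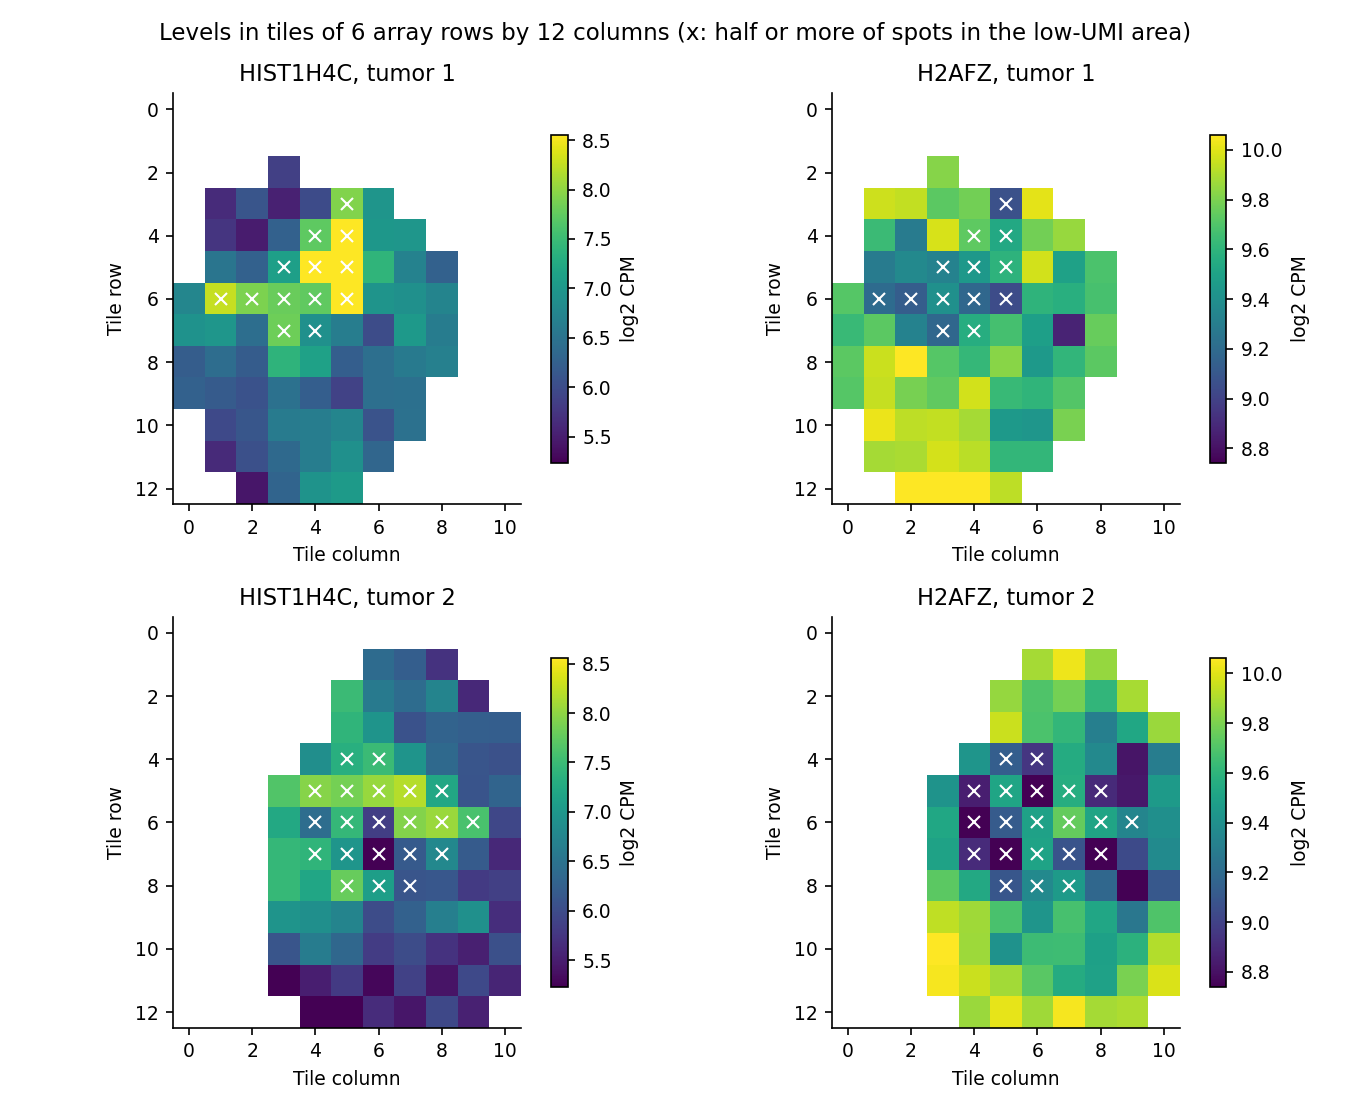
Maps of log2 CPM of HIST1H4C (left) and H2AFZ (right) in tiles of 6 array rows by 12 array columns, for tumor 1 (top) and tumor 2 (bottom), where a cross marks a tile with 50% or more of its spots in the low-UMI area. HIST1H4C reached 595 CPM in a tile of tumor 1, and the crossed tiles had a lower median H2AFZ than the others in both tumors.

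A member was counted as higher or lower in a described comparison when it was at least 1.25-fold apart in the same direction in both tumors. For scale, 21 of 28 hypoxia genes and 0 of 26 replication genes were higher in the area by this rule, and 0 and 2 were lower. In the low-UMI area, 3 of 9 members were higher, beside 7.75% of all genes, and 0 were lower, beside 8.94% of all genes. The rule for the members used this reading, so the counts describe them and no more. HIST1H1E had 7.80 CPM in the area and 5.55 CPM in the rest in tumor 1, and 17.6 and 7.94 CPM in tumor 2, but its interval of 0.85 to 2.21 in tumor 1 includes an equal level. HIST1H2BC had 12.9 and 9.78 CPM, and 11.7 and 8.14 CPM, from 33 and 16 UMIs in the area, and both its intervals include an equal level. H2AFZ was lower in the area, at 667 CPM against 880.4 CPM in the rest of tumor 1 and at 611 CPM against 763 CPM in the rest of tumor 2, which is just short of the rule in tumor 2, and met it in both tumors with scaling by library size alone.

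The other members were close to even. HIST1H2AC was -0.00 and -0.14 on the log2 scale in tumors 1 and 2, HIST1H1C -0.09 and -0.27, HIST1H2BD 0.17 and -0.03, and HIST2H2BE 0.14 and 0.22. HIST1H2BK had 16 UMIs in the area of tumor 1 and 1 UMI in that of tumor 2, too few to place. The median of the 9 members was 0.14 and 0.08 in tumors 1 and 2, beside -0.01 and -0.03 for all genes. With spots thinned to 1500 UMIs, which left out 2 and 442 shallower spots, HIST1H4C was the only member that met the 1.25-fold rule, at 1.80 and 0.70 on the log2 scale, and HIST1H2BC turned to -0.29 on average. Against spots 1 to 3 steps outside the area only HIST1H4C met it, at 1.72 and 0.49.

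Markers of fibroblasts, macrophages and granulocytes, endothelium, skeletal muscle and red blood cells, 48 genes in all, were read beside each comparison. In the low-UMI area they summed to 1375 CPM, against 1379 CPM in the rest, in tumor 1, and to 2917 CPM, against 1579.7 CPM in the rest, in tumor 2. Of the 48, 10 were higher and 16 lower in the area of both tumors, and 0 were without a UMI. The HIST1H4C difference was 2.08 and 1.01 on the log2 scale in tumors 1 and 2 when the tenth of spots richest in these markers was left out, as large as with them.

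The hypoxia score is the mean of 28 hypoxia-induced genes such as CA9, VEGFA and NDRG1. They were z-scored over all kept spots and averaged with adjacent spots, those of the low-UMI area included. Among spots outside the low-UMI area, the top quartile of the score was set against the bottom quartile. The quartiles held 502 spots each in tumor 1 and 504 each in tumor 2. Median UMIs per spot were 21900.5 in the high and 31254.5 in the low quartile of tumor 1, and 17513.5 and 18414 in tumor 2. HIST1H1E was higher where the score was high, at 8.10 CPM in the high quartile, against 3.72 CPM in the low quartile, in tumor 1 and at 12.95 CPM against 4.71 CPM in tumor 2. The ratio of high to low was 2.18 (interval 1.55 to 3.08) and 2.75 (1.92 to 3.98). HIST1H2BC, at 12.3 CPM in the high quartile against 8.25 CPM in the low quartile of tumor 1 and 10.5 against 5.55 CPM in tumor 2, ran the same way. H2AFZ was lower in the high quartile, at 749 CPM against 1041 CPM in tumor 1 and at 631 CPM against 922 CPM in tumor 2.

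By the 1.25-fold rule 2 of 9 members were higher, beside 10.4% of all genes, and 1 was lower, beside 8.08% of all genes. HIST1H4C, HIST1H2BD and HIST2H2BE were past 1.25-fold in tumor 2 and not in tumor 1. HIST1H4C had 90.6 CPM in the high and 84.1 CPM in the low quartile of tumor 1, and 104 CPM in the high and 59.5 CPM in the low quartile of tumor 2. With library size alone, which moves the median of all genes to -0.12 in both tumors, HIST1H4C was at -0.02 in tumor 1. HIST2H2BE was 0.29 and 0.80 apart on the log2 scale in tumors 1 and 2, and HIST1H2BD 0.24 and 0.67. HIST1H1C was -0.25 and -0.02 apart, HIST1H2AC -0.13 and 0.15, and HIST1H2BK -0.31 and 0.15, from 7 UMIs on each side in tumor 2. The tumors thus had the same sign for HIST1H1E, HIST1H2BC, H2AFZ and HIST1H1C among others, and opposite signs for HIST1H2AC and HIST1H2BK. With spots thinned to 1500 UMIs, HIST1H1E was at -0.08 in tumor 1 and 1.43 in tumor 2 and HIST1H2BC at -0.06 and 0.77, so that neither met the rule. HIST1H2BD did, at 0.46 and 0.41, and H2AFZ was the only member lower by it.

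Over the 4 quartiles of the hypoxia score, low to high, HIST1H1E was at 3.73, 5.20, 6.54 and 8.09 CPM in tumor 1 and at 4.71, 6.28, 9.23 and 12.95 CPM in tumor 2. H2AFZ was at 1043, 912, 820.1 and 748 CPM in tumor 1 and at 922, 839, 692.5 and 632 CPM in tumor 2. Each had a steady order in both tumors, and H2AFZ in the low-UMI area was at 679.9 and 628 CPM on the same scale, below each quartile and by little in tumor 2. HIST1H4C was at 84.4, 87.0, 85.3 and 90.6 CPM in tumor 1 and at 59.5, 85.2, 71.8 and 104 CPM in tumor 2, with 362 and 161 CPM in the low-UMI area. Its level in the area was thus above each hypoxia quartile in both tumors.

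**Figure D3:**
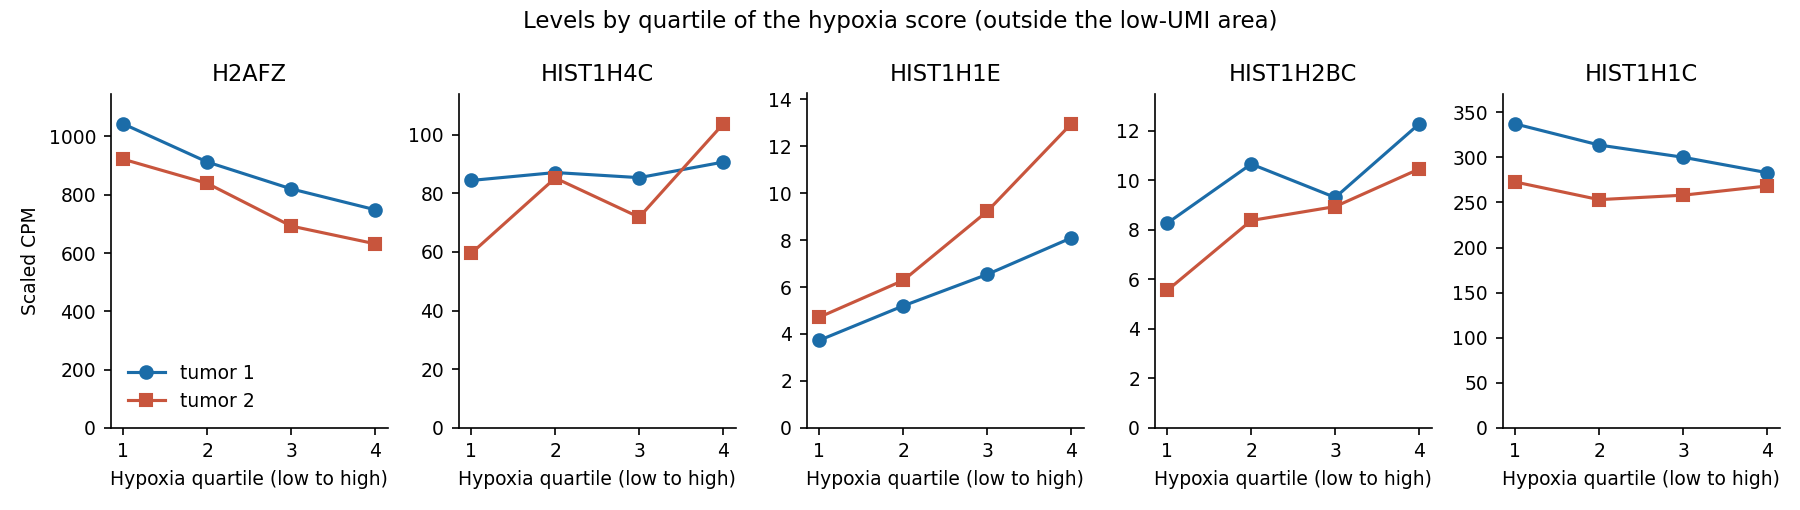
Scaled CPM by quartile of the hypoxia score, low to high, outside the low-UMI area, for H2AFZ, HIST1H4C, HIST1H1E, HIST1H2BC and HIST1H1C in tumor 1 (circles) and tumor 2 (squares), each axis starting at 0. HIST1H1E stood at 8.09 and 12.95 CPM in the highest quartile against 3.73 and 4.71 CPM in the lowest, and H2AFZ had the opposite order.

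The other-cell markers summed to 1731 CPM in the high and 1322 CPM in the low hypoxia quartile of tumor 1, and to 1284 CPM in the high and 2742 CPM in the low quartile of tumor 2. Of 48 markers, 6 were higher and 15 lower in both tumors, and EMCN had no UMI. Leaving out the tenth of spots richest in them, HIST1H1E was at 1.21 and 1.43 and H2AFZ at -0.53 and -0.54 on the log2 scale in tumors 1 and 2, as large as with them.

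The replication score was made the same way from 26 genes of DNA replication, such as MCM2, PCNA and RRM2, with no histone gene among them. H2AFZ was higher where the score was high, at 1032 CPM in the high quartile against 672 CPM in the low quartile of tumor 1 and at 873 CPM against 559 CPM in tumor 2. The ratio of high to low was 1.53 (interval 1.49 to 1.58) and 1.56 (1.501 to 1.62), nearly the same in both tumors. Depth differed between these quartiles, with a median of 33287 UMIs per spot in the high and 18760 in the low quartile of tumor 1. In tumor 2 these medians were 22249 and 12204.5. HIST1H1E was lower where the score was high, at 3.93 CPM in the high quartile against 9.73 CPM in the low quartile of tumor 1 and at 4.97 CPM against 13.7 CPM in tumor 2. By the 1.25-fold rule 1 of 9 members was higher, beside 9.82% of all genes, and 3 were lower, beside 12.5% of all genes.

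The other members called lower were HIST1H2BC and HIST2H2BE, at -0.56 and -0.77, and at -0.45 and -0.996, on the log2 scale in tumors 1 and 2. HIST1H2BD was at -0.28 and -0.77 and HIST1H4C at -0.16 and -0.30. With HIST1H1E, these members had lower values in the high quartile of both tumors, while HIST1H1C was at 0.05 and -0.20, HIST1H2AC at 0.01 and -0.10 and HIST1H2BK at 0.32 and 0.03. With scaling by library size alone, which moves the median of all genes to 0.14 and 0.19, HIST2H2BE is no longer among those lower. With spots thinned to 1500 UMIs, HIST1H1E was the only member lower by the rule, at -0.49 and -0.91 in tumors 1 and 2, while HIST1H2BC was at -0.10 and -1.03 and HIST2H2BE at -0.69 and -0.17, and H2AFZ was the only one higher. The G2 and M phase list, a readout of cells after replication, had 26 of 30 genes higher and 0 lower by the same rule.

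Over the 4 quartiles of the replication score, low to high, H2AFZ was at 677, 795, 934 and 1046 CPM in tumor 1 and at 565, 708, 827 and 883 CPM in tumor 2. HIST1H1E was at 9.80, 5.71, 4.87 and 3.98 CPM in tumor 1 and at 13.8, 9.47, 6.89 and 5.02 CPM in tumor 2. Both orders held in both tumors. HIST1H4C was at 93.6, 88.4, 81.9 and 84.3 CPM in tumor 1 and at 96.4, 74.2, 74.96 and 78.2 CPM in tumor 2, where the lowest quartile alone stood above the others.

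**Figure D4:**
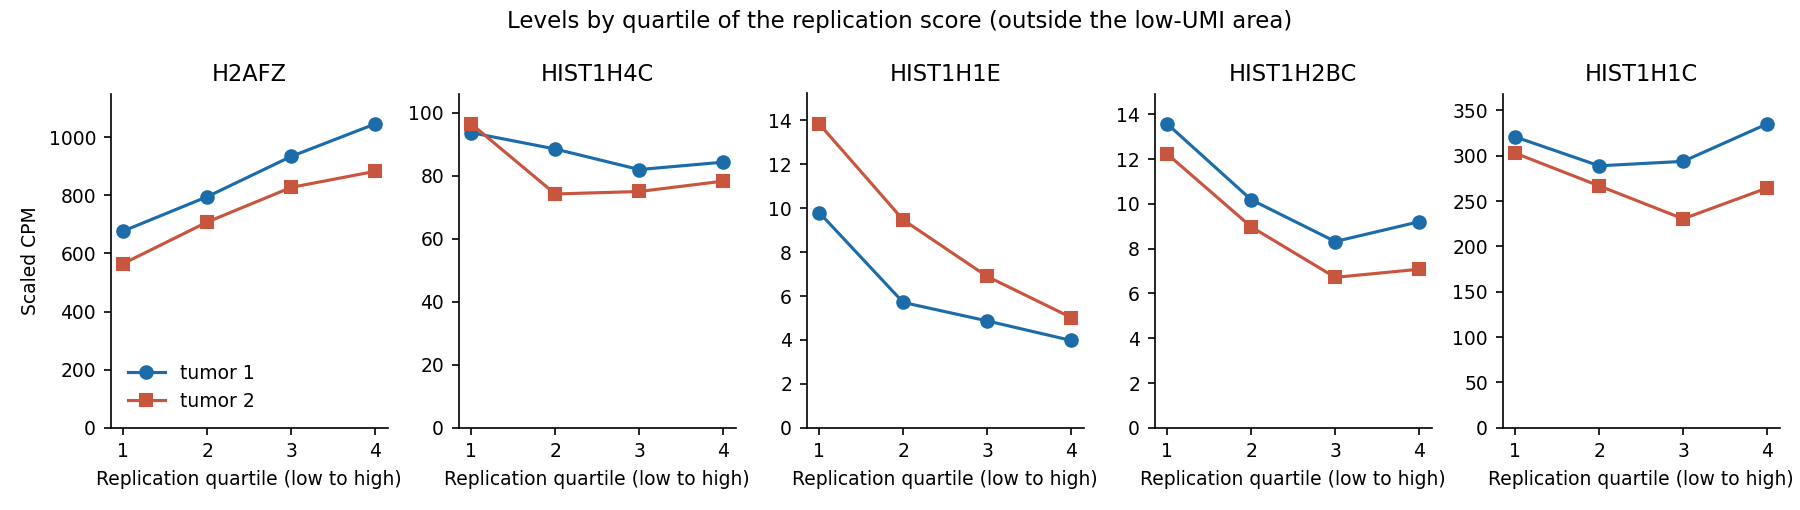
Scaled CPM by quartile of the replication score, low to high, outside the low-UMI area, for H2AFZ, HIST1H4C, HIST1H1E, HIST1H2BC and HIST1H1C in tumor 1 (circles) and tumor 2 (squares), each axis starting at 0. H2AFZ stood at 1046 and 883 CPM in the highest quartile against 677 and 565 CPM in the lowest, and HIST1H1E had the opposite order.

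The 2 scores oppose each other in these tumors. Of the spots with high hypoxia, 58.2% in tumor 1 and 58.9% in tumor 2 were in the low replication quartile, and the readings above therefore share spots. The other-cell markers summed to 1308 CPM in the high and 1761 CPM in the low replication quartile of tumor 1, and to 1508 CPM in the high and 1561 CPM in the low quartile of tumor 2. High and low hypoxia spots were then drawn in equal numbers within deciles of the replication score, which left 46 spots per side in tumor 1 and 136 in tumor 2. Of the 8 members that passed the filter on low counts, 0 were higher, beside 5.96% of all genes, and 0 lower, beside 4.84% of all genes. HIST1H1E did not pass that filter, with log2 values of 0.16 and 0.82 from 6 and 5 UMIs in tumor 1 and 34 and 9 UMIs in tumor 2, high hypoxia first, too few for a reading.

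In that matched reading H2AFZ was at -0.14 and -0.52 on the log2 scale and HIST1H4C at -0.05 and 1.503, from 107 and 106 UMIs in tumor 1 and 315 and 55 UMIs in tumor 2, high hypoxia first. The other-cell markers summed to 7117 CPM in the low hypoxia side of tumor 2, against 1143 CPM in the high side, and the part of those spots in the tumor 2 value was not tested. In tumor 1 they summed to 1502 CPM in the low and 2508 CPM in the high side. Of the 48 markers 2 were higher and 14 lower at high hypoxia in both tumors, at any fold. Median UMIs per spot were 22439 on the high and 9513.5 on the low side of tumor 2, and 31834.5 and 28864 in tumor 1. High and low replication spots matched on the hypoxia score, 60 per side in tumor 1 and 78 in tumor 2, had 1 member higher, beside 7.86% of all genes, and 1 lower, beside 7.82% of all genes. They were H2AFZ, at 0.43 and 0.54, and HIST1H1E, at -0.91 and -1.46 from 8 to 11 UMIs a side. HIST1H1E had 4.94 and 4.29 CPM on the high side of tumors 1 and 2, and 10.5 and 14.2 CPM on the low side. It could pass the filter through the low side alone, so its direction there is partly set by the filter. Its count as lower is a description only. HIST1H2BK did not pass the filter there. The other-cell markers summed to 1342 CPM in the high and 2187 CPM in the low side of tumor 1, and to 1510.1 CPM in the high and 3477 CPM in the low side of tumor 2. S100A8, EMCN, CD163, HBA2, CLDN5 and ALAS2 had no UMI there. Of the 48 markers 3 were higher and 22 lower in both tumors, at any fold. Their part in this result was not tested. H2AFZ kept its direction with replication score at like mean hypoxia score, and HIST1H1E rests there on very few molecules. The matched sums still differed in hypoxia genes, with 16 of 28 lower and 0 higher by the 1.25-fold rule, at medians of -0.47 and -0.71. Depth differed too, with a median of 38897.5 UMIs per spot on the high and 16927.5 on the low side of tumor 1. In tumor 2 these medians were 22511.5 and 6295.

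A grid of tertiles of both scores gave H2AFZ by replication tertile, low to high, at high and at low hypoxia. At high hypoxia it was at 698, 849 and 851 CPM in tumor 1 and at 597, 707 and 774 CPM in tumor 2. At low hypoxia it was at 741, 952 and 1062 CPM in tumor 1 but at 1056, 946 and 909 CPM in tumor 2. The order with replication was thus the same in 3 of these 4 readings, and the reverse in the low hypoxia tertile of tumor 2. An end of each order rests on few spots. The cell of low hypoxia and low replication held 14 spots in tumor 1 and 44 in tumor 2. That of high hypoxia and high replication held 16 and 15 spots.

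The inner tertile of spots by steps to the tissue border was set against the outer tertile, the zones drawn from position alone. UMI sums per tumor and zone (n = 2 tumors) were tested with the quasi-likelihood test of edgeR, blocking on tumor, with Benjamini-Hochberg adjustment over 14588 genes. HIST1H2BD and HIST1H1E rose and H2AFZ fell in the inner tertile, while the other 6 members did not pass. That is 2 higher of 9, beside 2.90% of all genes, and 1 lower, beside 4.09% of all genes, with 6.99% of all genes called in either direction. The low-UMI area, whose values were known when the members were chosen, makes up 42.7% and 56.995% of the inner tertile in tumors 1 and 2 and 6.20% and 10.1% of the outer tertile, so these zones share spots with the reading above.

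HIST1H2BD had 45.9 CPM in the inner and 42.8 CPM in the outer tertile of tumor 1, and 58.0 and 39.5 CPM in tumor 2. Its log2 fold change was 0.31 ± 0.09 (SE), with an edgeR adjusted p of 0.0330. HIST1H1E had 6.34 CPM in the inner and 5.11 CPM in the outer tertile of tumor 1, and 10.7 and 5.62 CPM in tumor 2, a log2 fold change of 0.61 ± 0.19 with an edgeR adjusted p of 0.0496. H2AFZ had 855 CPM in the inner and 937 CPM in the outer tertile of tumor 1, and 676 and 874 CPM in tumor 2, a log2 fold change of -0.25 ± 0.08 with an edgeR adjusted p of 0.0436. Each difference had the same direction in 2 of 2 tumors and was larger in tumor 2. In tumor 1 the ratio of inner to outer was 1.07 (interval 0.97 to 1.19) for HIST1H2BD and 1.24 (0.93 to 1.65) for HIST1H1E. Both of these intervals include an equal level, while that of H2AFZ, at 0.91 (0.89 to 0.93), does not. By the 1.25-fold rule in both tumors, 0 of 9 members were higher and 0 lower here.

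These 3 calls lie near the threshold and are not stable. In the main fit 4 of 9 members, and 2896 of 14585 gene symbols, had an edgeR unadjusted p under 0.05. With the low-UMI area left out, 0 of 9 members were called by edgeR (4 at an unadjusted p under 0.05), with adjusted p-values of 0.0724 for HIST1H2BD, 0.231 for HIST1H1E and 0.132 for H2AFZ. Without the tumor as a block 0 members and 34 genes were called, and DESeq2 called 0 members and 97 genes. Over 11 alternatives the adjusted p ranged over 0.0156 to 0.999895 for HIST1H2BD, 0.0182 to 0.999895 for HIST1H1E and 0.00373 to 0.539 for H2AFZ.

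HIST1H4C had 121 CPM in the inner and 84.3 CPM in the outer tertile of tumor 1, against 77.2 CPM in the inner and 91.1 CPM in the outer tertile of tumor 2, so the tumors had opposite signs. Its log2 fold change was 0.17 ± 0.10 with an edgeR adjusted p of 0.364. HIST1H2AC was at 0.17 with an edgeR adjusted p of 0.183, HIST1H2BC at 0.28 with 0.348, HIST1H1C at -0.14 with 0.308, HIST1H2BK at -0.29 with 0.545 and HIST2H2BE at 0.04 with 0.938, all from the same edgeR fit. The median of the 9 members was 0.10 and 0.19 in tumors 1 and 2, beside 0.0002 and -0.0016 for all genes. The other-cell markers summed to 993 CPM in the inner and 2029.5 CPM in the outer tertile of tumor 1, and to 793 and 2772 CPM in tumor 2, and 30 of 48 were lower in the inner tertile of both tumors. With the spots richest in them left out, HIST1H2BD was called and HIST1H1E and H2AFZ were not, at edgeR adjusted p-values of 0.0586 and 0.0572.

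**Figure D5:**
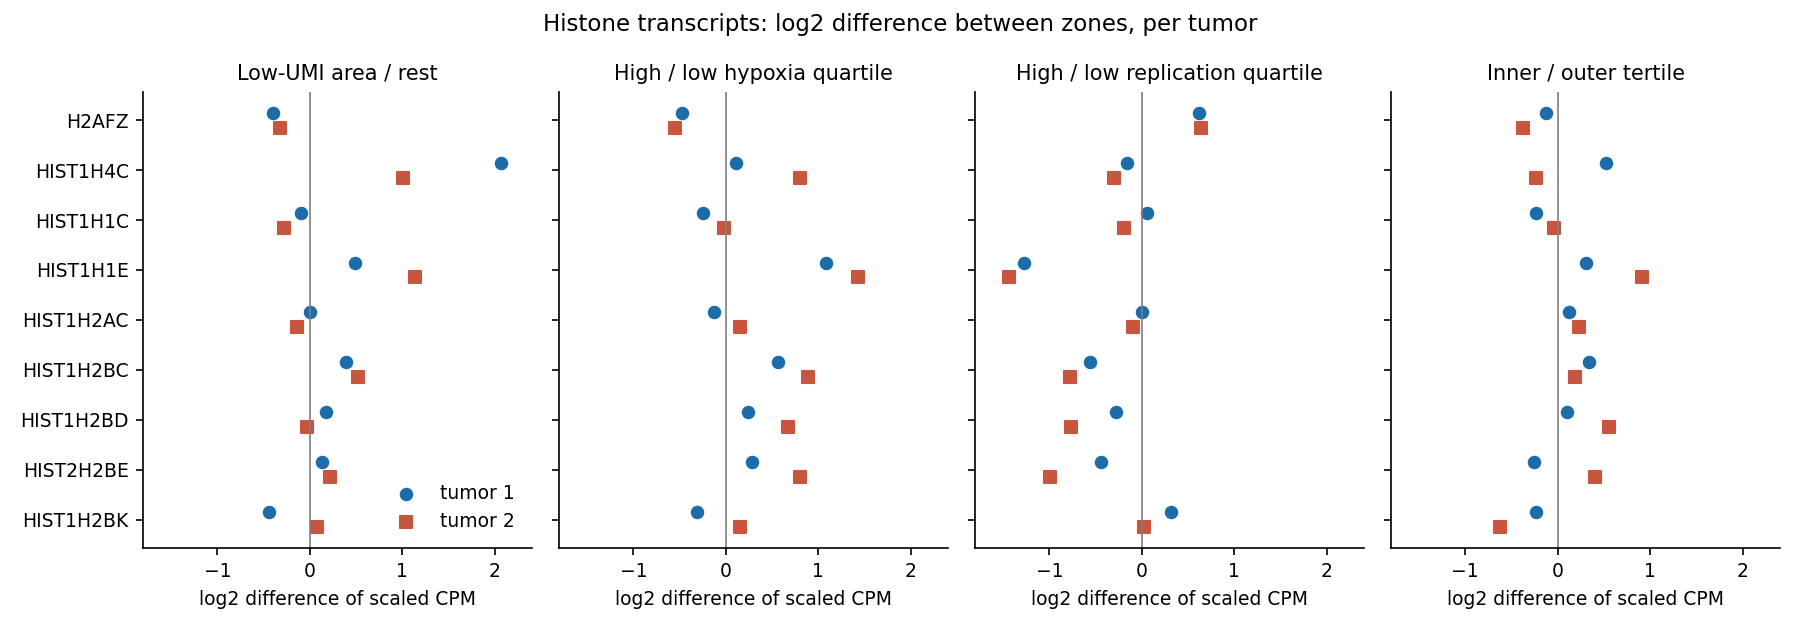
Log2 difference of scaled CPM for the 9 histone genes in 4 comparisons, named over each panel with the zone on top of the ratio first, for tumor 1 (circles) and tumor 2 (squares). In the low-UMI area HIST1H4C was at 2.06 and 1.005, farthest right in tumor 1 and behind HIST1H1E at 1.14 in tumor 2. HIST1H1E was on opposite sides of 0 for hypoxia and replication. H2AFZ had the opposite sign to HIST1H1E in both of those panels, with smaller differences.

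Genes that serve histones were read from 3 lists. Of 18 histone chaperones, which carry histones and set them on DNA, 0 rose and 1 fell in the inner tertile, NAP1L4, a carrier of H2A and H2B, at -0.26 with an edgeR adjusted p of 0.0256, beside 2.90% of all genes that rose and 4.09% that fell. DESeq2 called 0 of the 18 (1 at an unadjusted p under 0.05, and 5 by edgeR). Of 11 factors that make or cut histone mRNA, such as SLBP and NPAT, 0 were called by edgeR (4 at an unadjusted p under 0.05) and 0 by DESeq2. Of 9 tested variant histones 0 were called by edgeR (3 at an unadjusted p under 0.05) and 0 by DESeq2. For scale, 2896 of 14585 gene symbols had an edgeR unadjusted p under 0.05, and 673 a DESeq2 one. Among 33 other histone genes tested, 0 rose and 2 fell, HIST3H2A (edgeR adjusted p 2.44e-05) and H3F3C (edgeR adjusted p 0.00399), beside the same 2.90% and 4.09% of all genes, and DESeq2 called 0. HIST3H2A had 10.3 CPM in the inner and 16.1 CPM in the outer tertile of tumor 1, and 3.64 and 22.7 CPM in tumor 2. H3F3C had 4.59 and 6.53 CPM in tumor 1, and 1.51 and 8.34 CPM in tumor 2. The outer tertile held more of the other-cell markers in both tumors, and their part in these 2 calls was not tested.

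In the hypoxia reading 6 of 18 chaperones were lower by the 1.25-fold rule, beside 8.08% of all genes, and 0 higher, beside 10.4% of all genes. By quartile of the replication score 5 of 18 chaperones were higher by that rule, beside 9.82% of all genes, and 0 lower, beside 12.5% of all genes. ASF1B, a carrier of H3 and H4, had 40.1 CPM in the high and 22.7 CPM in the low quartile of tumor 1 and 35.2 and 17.4 CPM in tumor 2. CHAF1A and CHAF1B, subunits of the complex that places H3 and H4 behind the replication fork, were at 0.64 and 0.98, and at 0.69 and 1.08, on the log2 scale. Of the variants H2AFX, the H2A.X gene of DNA damage sites, was at 0.85 and 0.75, and H2AFJ was at -0.58 and -0.59. None of the 11 mRNA factors met the rule. H2AFZ thus had the direction of ASF1B and H2AFX, and HIST1H1E that of H2AFJ.

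Among the histone genes that are not members, 12 of the 29 that passed the filter were lower in the high replication quartile, beside 12.5% of all genes, and 4 higher, beside 9.82% of all genes. In the high hypoxia quartile 8 of 28 were higher, beside 10.4% of all genes, and 4 lower, beside 8.08% of all genes. The 3 with the largest differences in the replication reading were HIST2H3D, HIST4H4 and HIST2H2AB, each lower. HIST4H4, an H4 gene, had 10 UMIs in the high and 24 in the low quartile of tumor 1. HIST2H3D was at 0.23 and 0.16 CPM in the high quartile of tumors 1 and 2, and at 1.60 and 1.27 CPM in the low quartile. In the hypoxia reading HIST4H4 had 26 UMIs in the high and 9 in the low quartile of tumor 1 and 25 and 8 UMIs in tumor 2. HIST1H4B and HIST1H3C, an H4 and an H3 gene, were likewise higher, at 1.26 and 1.37 and at 1.05 and 1.32 on the log2 scale. Their counts are small, and near-identical copies could have shared reads. A gene this rare can pass the filter through the quartile where it is high alone, so its direction is partly set by the filter. The counts of 12 and 8 above include such genes and are descriptions only.

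Across tiles outside the low-UMI area (61 in tumor 1 and 64 in tumor 2, which share depth and library), H2AFZ had a Pearson r of 0.83 with the replication score in both tumors and of -0.61 and -0.64 with the hypoxia score. HIST1H1E had -0.50 and -0.24 with the replication score. Among 6564 genes the most like H2AFZ were TUBA1B, TUBA1C, TUBB4B, H3F3A and EIF4G2, with the lower r of the 2 tumors at 0.87, 0.84, 0.83, 0.81 and 0.81. For HIST1H4C they were PABPC1, NAP1L1, HSP90AB1, DDX21 and PTMA, at 0.62 to 0.46. For HIST1H2AC they were SREBF1, ISG15, IFI27, MX1 and LY6E, at 0.49 to 0.46.

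HIST1H1C was most like SNHG9 at 0.51, then CHCHD10, GADD45GIP1, CYTOR and PSMC4. HIST1H2BD had HIST1H2AC as its most like gene, at 0.42, ahead of RPL7A, CFAP36, ZFAS1 and BDP1. HIST1H2AC and HIST1H2BD are both members and lie in the same cluster. Moran I, which is high when adjacent spots are alike, was 0.38 and 0.37 for H2AFZ, 0.21 and 0.13 for HIST1H1C, 0.19 and 0.23 for HIST1H4C, 0.095 and 0.089 for HIST1H2AC and 0.030 and 0.032 for HIST1H2BD, outside the area. The medians over 7051 and 5832 genes were 0.02 and 0.03, so H2AFZ exceeded 98.98% and 98.4% of genes and HIST1H4C 96.5% of genes in both. HIST1H2BD was near the middle, above 62.1% and 51.4% of genes.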

How the data were processed

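UMI tables of 2 tumors were used as deposited. The counts, 1 per gene and spot, came from the authors' run of Space Ranger 1.3.0, a version taken per the file headers; the submitters' processing notes name hg38. CPM and log2 values were computed here. A spot was kept if it lay over tissue and had 500 or more UMIs. Counts were summed per tumor and zone, as spots of 1 section share their source. The tertile comparison was fitted in edgeR 4.0.16 (TMM, filterByExpr, tumor block, 1 residual degree of freedom, 33.6 prior degrees of freedom, Benjamini-Hochberg threshold 0.05); both zones of a tumor come from its section, which pairs them. SE is the log2 fold change over the square root of F. With so few residual degrees of freedom, the variance behind each p-value is mostly shared over all genes. The p-values thus say little about the spread of a single gene between the 2 tumors. Intervals cover counting error only. The fit was tested on simulated counts with 200 changed genes. Per-tumor log2 differences used TMM scaling and a prior count of 2. Likeness used tiles with 15 or more spots and genes at 20 or more CPM.

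The members, gene lists and comparisons were chosen with earlier results of these data known. Genes were named by rule: the 9 members, the 3 genes of each list with the largest mean log2 difference per comparison, and the 5 most like genes of each member at 20 or more CPM; H2AFX, H2AFJ, CHAF1A and others printed are among them, and not every such gene is printed. C11orf98, RPS10-NUDT3 and HIST2H2AA4 were named after their values were seen. Positions and promoters are from RefSeq on GRCh38.p14, with 9 of 9 members matched. Alternatives were DESeq2 1.42.0, other size factors, no filter, no block, other borders, zone widths, spot filters and strata, thinned spots, and leaving out each tumor. Software was Python 3.11.15 (pandas 2.3.3, scipy 1.17.1, numpy 2.4.6, matplotlib 3.10.9) and R 4.3.3. Images were not used here.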

Additional observations from a re-analysis of the deposited data

How the results depend on the processing

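In the inner against outer comparison edgeR put 4 members, and 2896 of 14585 gene symbols, at an unadjusted p under 0.05. After adjustment it called 3 members and 1019 genes. It called 5 members (3 higher, 2 lower) and 1685 genes with the frame edge as border, 0 members (5 at an unadjusted p under 0.05) and 405 genes with the inner 50% of spots against the outer 50%, and 0 members (4 at an unadjusted p under 0.05) and 601 genes without the low-UMI area. It called 1 member with DESeq2 size factors, 1 with library size alone, 1 without the tenth of spots richest in other-cell markers, and 281 genes with thinned spots. Without the tumor as a block (no replicate block) it called 0 members (2 at an unadjusted p under 0.05) and 34 genes, and DESeq2 called 0 members (1 at an unadjusted p under 0.05) and 97 genes. HIST1H4C turned to -0.10 without the low-UMI area and to -0.24 in tumor 2 alone, against 0.52 in tumor 1 alone. HIST2H2BE turned to -0.027 with the frame edge as border and to -0.094 without the marker-rich spots, and was -0.26 in tumor 1 alone and 0.40 in tumor 2 alone. The median member log2 for the low-UMI area was 0.073, and was -0.030 for the lowest quartile of spots by UMIs, -0.016 with library size alone, -0.11 with thinned spots and 0.032 without the marker-rich spots, with 0.078 and 0.14 when a tumor was left out. HIST1H2BC turned to -0.29 there with thinned spots. For replication the median was -0.23, and was -0.34 with the low-UMI area included, -0.061 with library size alone and -0.11 with the upper 50% of spots against the lower 50%, and matched on hypoxia it was -0.21, and -0.078 with library size alone. When a tumor was left out, these medians lay between -0.30 and -0.16 for replication, between -0.26 and -0.13 for the matched replication reading, between 0.11 and 0.67 for hypoxia and between -0.05 and 0.37 for the matched hypoxia reading. The cause of these changes was not tested. HIST1H4C stayed higher in the low-UMI area of both tumors under the 5 alternatives tried there. Depth limits HIST1H1E, HIST1H2BC, HIST2H2BE and HIST1H2BK, with 581 or fewer UMIs each per tumor.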
